A study of Drosophila melanogaster with 36 samples.

Results

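The nuclear genome of Drosophila melanogaster encodes most subunits of the mitochondrial respiratory chain and of ATP synthase. Genes were taken here by their FlyBase symbol: those that start with ND- (complex I), SdhA to SdhD (complex II), UQCR- (complex III), COX and a digit (complex IV) or ATPsyn (complex V). The rule found 87 of the 17611 genes in the count files: 40 of complex I, 7 of complex II, 9 of complex III, 16 of complex IV and 15 of complex V. Of these, 24 carry the name of another subunit plus L or L and a digit, and are called paralogs below. The rule used names only, and no measured value.

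Complexes I and II pass electrons from NADH and succinate to ubiquinone, complex III passes them on to cytochrome c, and complex IV hands them to oxygen. Complexes I, III and IV pump protons across the inner mitochondrial membrane, and ATP synthase lets them flow back to make ATP. A few core subunits of complexes I, III, IV and V are encoded in the mitochondrion, so their assembly needs transcripts from both genomes. Neurons, flight muscle and photoreceptors are known for high demands on this pathway.

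RNA came from fly heads of 3 genotypes, each with the driver orco-Gal4, which acts in the Orco-positive olfactory neurons. The dnmnatOE flies, in a w background, had orco-Gal4/5xUAS-dnmnat on the second chromosome and 5xUAS-GFP::RpL10Ab/+ on the third, so that their driver cells carry extra dNmnat, an NAD-synthesising enzyme that delays axon degeneration, and a tagged ribosomal protein. Wild type flies had orco-Gal4/+ and the same 5xUAS-GFP::RpL10Ab/+ without the dnmnat transgene, and background flies had orco-Gal4/+ alone and no tagged ribosome, both also in w. Flies were 5 to 10 days old at ablation, per the methods for this injury, and no separate age is given for the uninjured flies in the sources used here. Injured flies had lost antennae and maxillary palps on both sides 7 days earlier, while uninjured flies were taken before injury, so that 7 days of age and the injury cannot be told apart. From 300 animals per genotype and condition, a poly-A selected whole-head input and a GFP-Trap ribosome pulldown without poly-A selection were each sequenced as 3 libraries, 36 in 12 groups. The labels call the 3 libraries technical replicates, so p-values measure only the spread between libraries, which may be technical. Because the samples are bulk RNA, fewer cells of a type and less RNA per cell cannot be told apart.

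The extra dnmnat was not visible in the counts. Nmnat, the dnmnat gene, had 23.9 to 30.2 CPM (counts scaled to library size) in uninjured inputs labelled dnmnatOE and 20.2 to 25.6 CPM in wild type, with a log2 fold change of 0.15 (SE 0.18, adjusted p = 0.67 by the quasi-likelihood test of edgeR, Benjamini-Hochberg adjusted). In injured inputs the Nmnat log2 fold change was −0.23 (SE 0.18, adjusted p = 0.38), and in uninjured and injured pulldowns it was −0.99 (SE 0.89, adjusted p = 0.62) and 1.03 (SE 0.97, adjusted p = 0.83). As far as these counts go, the name dnmnatOE below therefore rests on the labels. The labels also give the cell type as olfactory sensory neurons. Orco, the odorant co-receptor that defines the driver cells, had 0.147 to 0.977 CPM in injured dnmnatOE inputs against 25.7 to 32.5 CPM in uninjured ones, and 0.312 to 3.755 against 23.95 to 30.3 CPM in wild type. In uninjured pulldowns Orco stood at 9.84 to 17.3 CPM in dnmnatOE, 1.77 to 45.8 CPM in wild type and 0 to 6.53 CPM in the untagged background. The 14 olfactory marker genes together gave 51.1 to 60.2 CPM in uninjured dnmnatOE inputs and 54.3 to 57.9 CPM in wild type, in libraries made from whole heads.

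Pulldown libraries held 644358 to 2057294 counts on genes and inputs 6628633 to 22329307. Respiratory chain genes took 1861 to 8297 of these counts in a pulldown (0.252 to 0.456%) and 69206 to 308337 in an input (0.685 to 1.54%). Reads that overlapped more than 1 gene made up 48.5 to 60.3% of pulldown and 1.92 to 3.21% of input totals. The median standard error of an injury log2 fold change over the tested members was 0.0968, 0.0962 and 0.0976 in dnmnatOE, wild type and background inputs, and 0.652, 0.689 and 0.667 in their pulldowns. Pulldown differences are therefore known far less well than input differences. An input library stood apart from its group: injured background input replicate 3 had 2.295% of its counts on mitochondrially encoded genes, against 1.37% and 1.49% in replicates 1 and 2, and its members summed to 9331 CPM against 10520 and 10590 CPM.

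After the filter on low counts 65 of the 87 members were tested in inputs, and 22 were not. Paralogs account for 20 of those 22, and the other 2 were ND-B8 with 2 counts over the 18 inputs and ND-MNLL with 0. The exons of ND-MNLL lie wholly within another gene on the same strand, so that reads there overlap both genes. Exons of another gene overlap 33 members, 4 of them over more than 50% of their exon bases, and reads there are uncertain. Paralogs were nearly absent: 22 of 24 had at most 100 counts over all 18 inputs. The complex I paralogs ND-20L, ND-24L, ND-51L2 and ND-B14.5AL, and SdhAL, SdhCL, UQCR-14L and ATPsynCF6L, had 0 counts in inputs, and ND-49L, ND-51L1, SdhBL, UQCR-6.4L, UQCR-11L, COX4L, COX6AL, COX6AL2, COX6CL, COX7AL, COX7CL, ATPsynGL, ATPsynepsilonL and ATPsynbetaL had between 1 and 100. COX5BL, with 147 counts, lies wholly within the exons of Trmt6. COX7AL2 was the exception, with 1590 counts, up to 213 in 1 library.

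Uninjured wild type inputs give the resting levels, here as CPM per kb of exon so that genes can be compared. ATP synthase led: ATPsynC, the proton-carrying ring, had 724 ± 15.4 CPM per kb (SD, n = 3 here and below), followed by the peripheral stalk gene ATPsynB at 404 ± 9.58 CPM per kb. In complex IV, COX5A was highest at 446.9 ± 5.401 CPM per kb and COX4 came next at 337 ± 5.75 CPM per kb. The complex III core proteins UQCR-C2 and UQCR-C1 stood at 325 ± 16.2 and 317 ± 15.3 CPM per kb, within each other's spread. ND-39 led complex I at 247 ± 14.7 CPM per kb, above ND-PDSW at 194 ± 18.8, and ND-51, which holds the NADH site, followed at 183 ± 6.30 CPM per kb, within the spread of ND-PDSW. In complex II the iron-sulfur subunit SdhB had 181 ± 5.18 CPM per kb, against 97.2 ± 1.65 for the membrane anchor SdhC, 85.6 ± 7.66 for the anchor SdhD and 76.4 ± 6.03 for the flavoprotein SdhA; SdhD and SdhA lie within each other's spread. The lowest tested complex I subunit that is no paralog was ND-AGGG at 20.8 ± 2.43 CPM per kb.

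The leading genes of the complexes had these values around injury. ATPsynC had 1327, 1281 and 1283 CPM in injured dnmnatOE inputs against 1737, 1732 and 1752 CPM in uninjured ones, 1126, 1098 and 1094 against 1323, 1380 and 1356 CPM in wild type, and 1344, 1312 and 1230 against 1607, 1634 and 1588 CPM in background; no groups overlapped, and the log2 fold changes of −0.42, −0.29 and −0.31 were under the fold threshold. COX5A had 238, 249 and 247 against 385, 387 and 403 CPM in dnmnatOE, 272, 282 and 269 against 351, 358 and 359 CPM in wild type, and 318, 317 and 260 against 434, 479 and 485 CPM in background. COX5A was lower without overlap in each, with log2 fold changes of −0.68, −0.38 and −0.64, of which those of dnmnatOE and background were called, that of background not without injured replicate 3 (−0.56). ND-39 had 386, 411 and 418 against 417, 444 and 459 CPM in dnmnatOE, 350, 330 and 404 against 374, 402 and 422 CPM in wild type, and 382, 446 and 369 against 432, 392 and 439 CPM in background, and its groups overlapped in all 3. SdhB had 193, 227 and 235 against 226, 268 and 273 CPM in dnmnatOE, 202, 183 and 186 against 225, 213 and 223 CPM in wild type, and 250, 246 and 194 against 236, 231 and 261 CPM in background, with overlap in dnmnatOE and background. UQCR-C2 had 530, 616 and 574 against 564, 722 and 716 CPM in dnmnatOE, 494, 498 and 548 against 530, 579 and 533 CPM in wild type, and 520, 595 and 458 against 568, 567 and 595 CPM in background, with overlap in each.

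Injury was followed by lower levels of the respiratory chain in whole heads of all 3 genotypes. Summed over all members, injured inputs of dnmnatOE held 10160 ± 45.6 CPM against 11820 ± 329 CPM in uninjured ones. Wild type sums were 9247 ± 191 CPM after injury against 11050 ± 156 CPM before, and background sums were 10150 ± 707 CPM against 13130 ± 119 CPM. In none of the genotypes did the injured and uninjured sums overlap. By complex, the fall in dnmnatOE inputs was spread unevenly: complex IV sums were 1112 ± 40.3 CPM injured and 1750 ± 61.8 CPM uninjured, while complex V sums were 4477 ± 62.9 and 4533 ± 48.7 CPM and overlapped.

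A gene was called where its adjusted p reached 0.05 or less and its log2 fold change was above 0.6 or below −0.6. In dnmnatOE inputs 25 of 65 members were called lower after injury, where 24.2% of all 10437 tested genes were, and 3 higher, where 26.5% of all genes were. Wild type had 15 of 65 lower against 10.7% of all genes, and 1 higher against 17.8%. Background had 25 of 65 lower against 5.25% of all genes, and 0 higher against 9.99%; with no adjustment, at p under 0.05, edgeR also found 0 higher, and DESeq2 called 0. Members called lower thus took 38.5%, 23.1% and 38.5% of those tested, above the share of all genes in each genotype, and members called higher took a smaller share than all genes. Member medians were −0.46, −0.39 and −0.55 on the log2 scale in dnmnatOE, wild type and background, beside −0.06, −0.02 and 0.01 over all tested genes. Without injured replicate 3, background had 19 of 66 lower (28.8%), where 4.48% of all genes were, and a member median of −0.46. By complex, lower calls in background then numbered 10 of 32, 2 of 4, 2 of 7, 4 of 11 and 1 of 12 for complexes I to V, with medians of −0.47, −0.45, −0.46, −0.59 and −0.33. On adjusted p alone, 46, 46 and 51 members were lower, beside 29.1%, 19% and 10.3% of all genes.

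**Figure D1:**
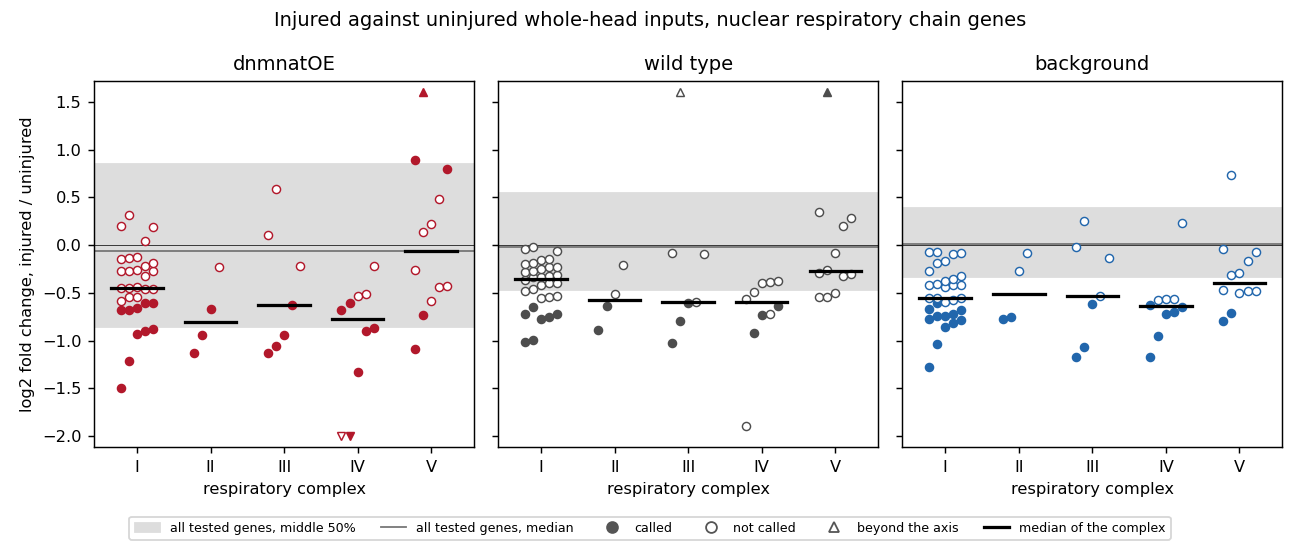
Log2 fold change of each tested member between injured and uninjured inputs (vertical axis), by respiratory complex (horizontal axis) and genotype (panels). Filled points were called, open points were not, triangles lie beyond the axis, black bars are medians of a complex and the grey band holds the middle 50% of all tested genes. Medians of complexes I to IV lie below the all-gene median in each panel, and complex V in dnmnatOE has its median at −0.06.

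The 3 injury comparisons use separate libraries, so their lists can be laid over each other. Of 32 members called lower in any genotype, 12 were called lower in all 3, which is 18.5% of the 65 tested, where 2.63% of all tested genes were. Those 12 make up 48% of the dnmnatOE list, 80% of the wild type list and 48% of the background list; over all genes the shares were 10.9%, 24.7% and 50.2%. They are ND-15, ND-AGGG, ND-B17.2 and ND-MLRQ of complex I, SdhC and SdhD of complex II, UQCR-6.4, UQCR-11 and UQCR-14 of complex III, and COX6B, COX7C and COX8 of complex IV. No ATP synthase gene is among them. Most are small accessory subunits or, for SdhC and SdhD, the anchors that hold succinate dehydrogenase in the membrane. UQCR-14 overlaps another gene on the opposite strand over all its exon bases and UQCR-6.4 over 40.5%, so their values are uncertain unless counting used strand. Some of these calls lie close to the fold threshold and ended with 1 library left out, adjusted p staying small: SdhC in dnmnatOE without injured replicate 3 (−0.60) or uninjured replicate 2 (−0.59), and in wild type without injured replicate 2 (−0.48), and COX7C in wild type without uninjured replicate 1 (−0.59). ND-15 in wild type ended without injured replicate 2 or uninjured replicate 1 (−0.59 each). UQCR-14 ended in dnmnatOE without injured replicate 2 (−0.56), uninjured replicate 1 (−0.57) or uninjured replicate 3 (−0.59), in wild type without injured replicate 3 (−0.58) or uninjured replicate 2 (−0.56), and in background without injured replicate 3 (−0.56).

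ND-MLRQ, named for a small subunit of bovine complex I whose mammalian counterpart was later placed in complex IV, lies at 3L:23339326-23345936 (BDGP6). It had 26.9, 18.7 and 18.6 CPM in injured dnmnatOE inputs against 52.1, 45.7 and 52.3 CPM in uninjured ones. Wild type values were 29.6, 23.9 and 28.1 CPM injured against 54.2, 55.8 and 55.1 CPM uninjured, and background values 38.9, 27.4 and 34.4 CPM against 75.9, 80.5 and 87.9 CPM. Every injured library lay below every uninjured library of its genotype. The log2 fold changes were −1.22 (SE 0.14, adjusted p = 1.2e-10), −1.02 (SE 0.14, adjusted p = 1.6e-08) and −1.28 (SE 0.14, adjusted p = 1.3e-10) in dnmnatOE, wild type and background, by the same edgeR test, which also gives all other adjusted p-values here.

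Most complex I genes lay lower after injury, 28 of the 32 in dnmnatOE. Of its 32 tested members, 10 were called lower in dnmnatOE, 7 in wild type and 12 in background, and none higher in any genotype; at an unadjusted p under 0.05, 3 lay higher in dnmnatOE and 0 in wild type and background, and DESeq2 called 0 higher in each. Those 3 of dnmnatOE also passed adjusted p, under the fold threshold. Median log2 fold changes were −0.44, −0.35 and −0.55. ND-AGGG, an accessory membrane-arm subunit, had 5.99, 3.82 and 4.69 CPM in injured dnmnatOE inputs against 15.3, 16.6 and 9.21 CPM in uninjured ones, 8.28, 8.78 and 6.35 against 17.2, 13.6 and 15.7 CPM in wild type, and 15.2, 7.02 and 12.1 against 20.5, 27.04 and 22.7 CPM in background. Its groups did not overlap, and its log2 fold changes were −1.49 (SE 0.27), −0.99 (SE 0.25) and −1.03 (SE 0.26), with adjusted p of 2.8e-06, 0.001 and 0.0013. ND-15 had 43.0, 27.2 and 31.8 CPM injured against 66.2, 58.3 and 70.6 CPM uninjured in dnmnatOE, 36.5, 30.7 and 33.7 against 57.3, 50.2 and 51.2 CPM in wild type, and 50.1, 36.8 and 36.4 against 80.7, 73.3 and 69.1 CPM in background, again without overlap. Its log2 fold change was −0.93 (SE 0.14, adjusted p = 6.2e-08) in dnmnatOE, −0.65 (SE 0.14, adjusted p = 8.4e-05) in wild type and −0.85 (SE 0.14, adjusted p = 1.9e-06) in background, and the wild type call ended without injured replicate 2 or uninjured replicate 1 (−0.59 each).

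Further complex I members were ND-B17.2, ND-MWFE and ND-B22, all small accessory subunits. Exons of other genes overlap ND-MWFE over 35% of its exon bases and ND-B22 over 26.1%, and reads there are uncertain. ND-B17.2 had 24.6, 25.9 and 24.1 CPM in injured dnmnatOE inputs against 47.1, 43.8 and 45.9 CPM in uninjured ones, 32.4, 22.5 and 30.2 against 53.2, 41.6 and 49.2 CPM in wild type, and 39.2, 36.5 and 34.2 against 67.7, 56.4 and 64.9 CPM in background. It fell in all 3, with log2 fold changes of −0.88, −0.76 and −0.78 (SE 0.14 each, adjusted p of 2.8e-07, 6.6e-06 and 9.5e-06). ND-MWFE had 20.6, 22.5 and 17.2 against 28.5, 24.5 and 28.7 CPM in dnmnatOE, 21.6, 14.1 and 16.8 against 32.7, 25.7 and 31.7 CPM in wild type, and 21.1, 21.3 and 15.4 against 33.7, 29.6 and 35.4 CPM in background. Its log2 fold changes were −0.44, −0.78 and −0.77 (SE 0.18 each, adjusted p of 0.028, 0.00023 and 0.00068), of which that of dnmnatOE was not called. ND-B22 had 43.8, 53.3 and 54.0 against 85.1, 82.4 and 71.4 CPM in dnmnatOE, 44.8, 56.6 and 59.7 against 72.0, 66.1 and 69.5 CPM in wild type, and 60.4, 49.4 and 52.2 against 97.4, 87.9 and 101 CPM in background. It was called in dnmnatOE (−0.66, SE 0.12, adjusted p = 1.8e-06; −0.57 and not called without injured replicate 1) and in background (−0.82, SE 0.12, adjusted p = 1e-07), and not in wild type. None of these pairs of groups overlapped. Complex I was also split by role, a split made after the values were seen. The 7 nuclear core subunits that carry the electron path are ND-75, ND-51, ND-49, ND-30, ND-24, ND-23 and ND-20. They had 0 calls in each genotype by edgeR and by DESeq2, and medians of −0.27, −0.29 and −0.38. At an unadjusted p under 0.05 in edgeR, 4, 6 and 5 of them lay lower and 2, 0 and 0 higher. The 25 other tested subunits that are no paralogs had 10, 7 and 12 lower calls and medians of −0.46, −0.39 and −0.60. The part of exon length, given below, in this split was not tested.

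Succinate dehydrogenase, complex II, had 4 tested members, of which 3 were called lower in dnmnatOE and 2 each in wild type and background. Both membrane anchors fell in all 3 genotypes, SdhC with the exceptions given above. SdhD had 39.5, 40.3 and 38.8 CPM in injured dnmnatOE inputs against 77.1, 76.9 and 73.6 CPM in uninjured ones, 44.3, 39.1 and 40.6 against 74.3, 84.2 and 71.0 CPM in wild type, and 57.5, 59.5 and 48.4 against 92.8, 96.2 and 94.4 CPM in background. The groups did not overlap, and SdhD log2 fold changes were −0.94 (SE 0.11, adjusted p = 1e-10) and −0.89 (SE 0.11, adjusted p = 7.5e-10), with −0.78 (SE 0.11, adjusted p = 7e-08) in background. SdhA, the flavoprotein that oxidises succinate (2R:19391863-19395971), was called in dnmnatOE only, with 108, 111 and 103 CPM injured against 220, 251 and 233 CPM uninjured and a log2 fold change of −1.13 (SE 0.08, adjusted p = 2.7e-18). Its values were 156, 151 and 136 against 200, 201 and 229 CPM in wild type, and 199, 193 and 180 against 226, 238 and 224 CPM in background, with log2 fold changes of −0.51 (SE 0.08) and −0.27 (SE 0.08), short of the fold threshold. Every injured SdhA library lay below every uninjured library of its genotype.

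In complex III the small accessory subunits UQCR-6.4 and UQCR-11 fell in each genotype. UQCR-Q, another small subunit, was called in dnmnatOE (−0.94) and not in wild type (−0.60) or background (−0.53). UQCR-6.4 had 16.2, 12.3 and 12.7 CPM in injured dnmnatOE inputs against 28.3, 30.2 and 27.5 CPM in uninjured ones, 17.8, 14.6 and 14.4 against 31.2, 29.6 and 34.3 CPM in wild type, and 17.9, 16.6 and 13.6 against 35.3, 34.6 and 38.9 CPM in background. All 9 injured libraries lay below all 9 uninjured ones, with log2 fold changes of −1.06, −1.02 and −1.17 (SE 0.17 each, adjusted p of 4.2e-07, 1.2e-06 and 2.7e-07). UQCR-11 had 13.2, 6.04 and 10.1 CPM against 20.5, 19.9 and 24.6 CPM in dnmnatOE, 11.4, 15.8 and 16.3 against 23.5, 24.8 and 27.2 CPM in wild type, and 14.7, 19.2 and 15.8 against 31.1, 32.6 and 40.9 CPM in background. Its injured libraries again lay below the uninjured ones, with log2 fold changes of −1.13 (SE 0.21), −0.80 (SE 0.20) and −1.07 (SE 0.21) and adjusted p of 5.5e-06, 0.00096 and 4.1e-05. Over the 7 tested members 4, 3 and 3 were called lower, and medians were −0.62, −0.60 and −0.53.

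Complex IV had 10 tested members, of which 6, 3 and 6 were called lower, with medians of −0.77, −0.60 and −0.64. COX8 (3L:21538859-21539447), an accessory subunit with a single membrane span, had 44.4, 38.9 and 42.6 CPM in injured dnmnatOE inputs against 108, 105 and 104 CPM in uninjured ones. In wild type it had 57.4, 41.2 and 52.8 against 94.8, 87.8 and 105 CPM, and in background 63.7, 79.0 and 50.3 against 120, 128 and 127 CPM. The groups were far apart in each genotype, with log2 fold changes of −1.33, −0.92 and −0.95 (SE 0.12 each, adjusted p of 4.2e-14, 2.5e-09 and 3.5e-09). COX7AL2, a COX7A paralog at 2L:2192525-2197912, had 0.580, 0.799 and 1.76 CPM in injured dnmnatOE inputs against 6.80, 6.72 and 6.50 CPM in uninjured ones, a log2 fold change of −2.67 (SE 0.43, adjusted p = 3.3e-07). In background it had 4.67, 3.70 and 2.97 against 7.21, 9.20 and 9.16 CPM, a log2 fold change of −1.17 (SE 0.39, adjusted p = 0.019), and in wild type 3.34, 5.27 and 2.40 against 7.88, 4.48 and 5.75 CPM, where the groups overlapped and the log2 fold change of −0.72 (SE 0.38, adjusted p = 0.12) was not called. The background call of COX7AL2 was lost without injured replicate 2 (−1.16), injured replicate 3 (−1.03), uninjured replicate 2 (−1.11) or uninjured replicate 3 (−1.12).

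**Figure D2:**
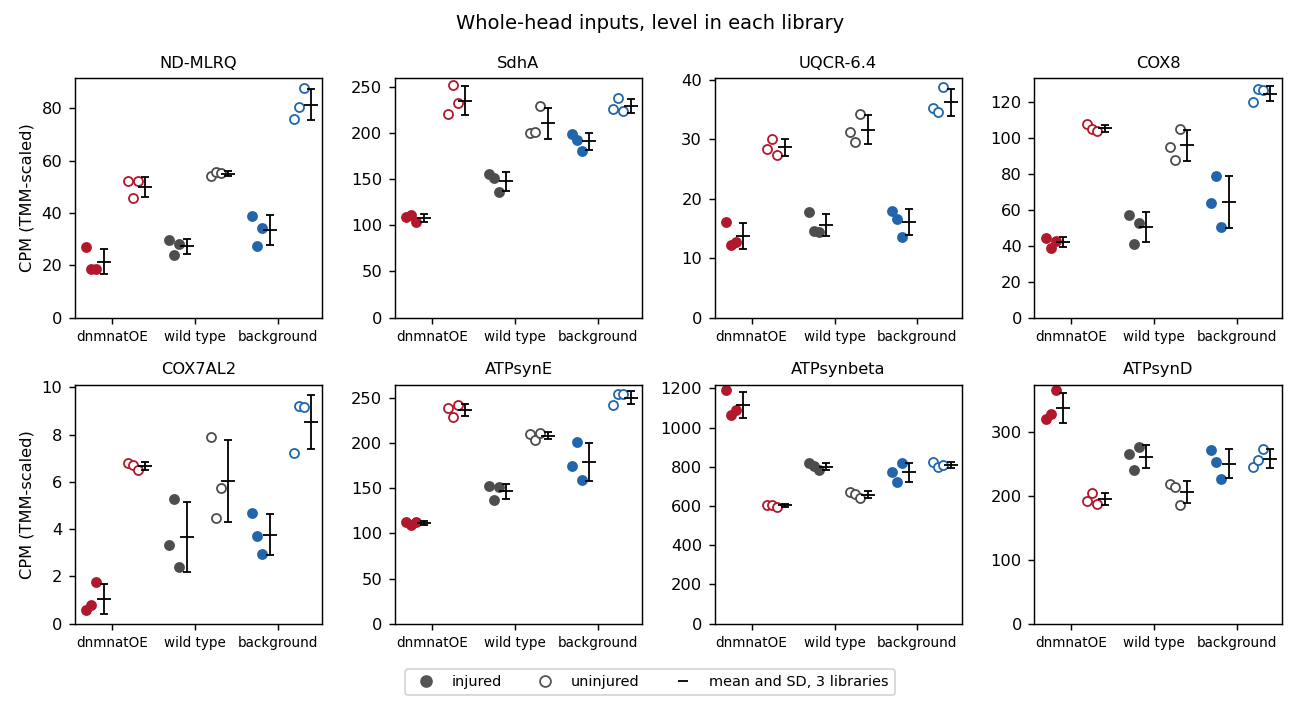
CPM of 8 members in each whole-head input library (points), with the mean and SD of the 3 libraries of a group beside them. Filled points are injured and open points uninjured libraries of dnmnatOE, wild type and background; on this TMM scale ATPsynbeta and ATPsynD lie higher in injured dnmnatOE libraries, and ATPsynbeta there reaches 1065 to 1190 CPM.

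ATP synthase had calls in both directions. Of 12 tested members 2, 0 and 2 were called lower and 3, 1 and 0 higher in dnmnatOE, wild type and background, with medians of −0.06, −0.27 and −0.39. In edgeR 7 lay lower in wild type and 0 higher in background at an unadjusted p under 0.05, and DESeq2 called 0 of each. ATPsynbeta, the catalytic subunit of the head (4:1031484-1034917), had 1190, 1065 and 1091 CPM in injured dnmnatOE inputs against 605, 607 and 597 CPM in uninjured ones, a log2 fold change of 0.89 (SE 0.06, adjusted p = 7.8e-20). Wild type had 818, 802 and 783 against 673, 663 and 640 CPM, a log2 fold change of 0.28 (SE 0.06, adjusted p = 3.1e-05) under the fold threshold, and background 775, 722 and 819 against 827, 797 and 811 CPM, which overlapped. ATPsynD, a peripheral stalk subunit, had 320, 327 and 365 CPM injured against 191, 205 and 188 CPM uninjured in dnmnatOE, a log2 fold change of 0.79 (SE 0.08, adjusted p = 2.4e-13). Its wild type values of 266, 241 and 276 against 218, 214 and 186 CPM did not overlap either (0.34, SE 0.07), while the background values of 272, 253 and 227 against 245, 256 and 274 CPM did (−0.04, SE 0.08).

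ATPsynE, a membrane subunit near the dimer interface of the enzyme, went the other way. It had 113, 109 and 113 CPM in injured dnmnatOE inputs against 240, 229 and 243 CPM in uninjured ones, a log2 fold change of −1.08 (SE 0.08, adjusted p = 6.9e-18). In wild type its 152, 137 and 151 CPM lay below 210, 204 and 211 CPM, and in background 175, 202 and 160 CPM lay below 242, 255 and 254 CPM, with log2 fold changes of −0.51 and −0.48 (SE 0.08 each) short of the threshold. Grouped after the values were seen and on the TMM scale, the 7 head and stalk subunits that the symbol rule takes had medians of 0.22, −0.08 and −0.29, which leaves out the alpha subunit blw (−0.69 in dnmnatOE) and the epsilon subunit sun (−1.17). The 4 membrane subunits had medians of −0.66, −0.52 and −0.60. ATPsynbetaL, a near-silent paralog of ATPsynbeta, had 27, 3 and 6 counts in injured dnmnatOE inputs against 0, 0 and 0 in uninjured ones. The injured mean was at least 4.99-fold higher against a floor of 3 counts per library. That bound rests mostly on the library with 27 counts, and the library with 3 counts lies at the floor. In wild type it had 27, 10 and 0 counts against 0, 0 and 1, groups that overlap, and the call there was lost without injured replicate 1 or 2 or uninjured replicate 1 or 2 (adjusted p of 0.19, 0.059, 0.13 and 0.14).

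Calls in both directions depended on the scaling. With library totals alone in place of TMM factors, a choice added after seeing the data, the median of all tested genes moved by −0.75, −0.38 and −0.06 on the log2 scale for injury in dnmnatOE, wild type and background inputs. The share of all genes called higher and lower became 14% and 46.9% in dnmnatOE and 10.7% and 28.6% in wild type. Called members then numbered 57 in dnmnatOE and 49 in wild type, of which 56 and 48 were lower. Under totals ATPsynbeta in dnmnatOE had a log2 fold change of 0.14 and ATPsynD 0.04, neither called. Both calls were kept with RLE size factors (0.87 and 0.77) and with DESeq2 (0.87 and 0.77). Relative to the median of all tested genes, ATPsynbeta stood at 0.95 and ATPsynD at 0.86 under TMM factors and under totals alike. Members less all genes stayed at −0.40, −0.37 and −0.56 under both scalings. Leaving out some 1 library ended the call of 8 of 25, 5 of 15 and 8 of 25 members called lower.

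Respiratory subunits that the symbol rule missed were read the same way. Among 9 tested of 10, 5 were called lower in dnmnatOE, 3 in wild type and 4 in background, with medians of −0.76, −0.43 and −0.39. The gene blw encodes the alpha subunit of the ATP synthase head, the partner of ATPsynbeta, and had a log2 fold change of −0.69 (SE 0.05, adjusted p = 2.4e-16) in injured dnmnatOE inputs, opposite in sign to ATPsynbeta. The complex IV genes cype and levy fell by 0.76 and 0.83 on the log2 scale there, and sun, the epsilon subunit of ATP synthase, fell by 1.17. Cyt-c1 of complex III and the cytochrome c gene Cyt-c-p stood at 0.11 (SE 0.06) and −0.38 (SE 0.06) and were not called. Subunits encoded in the mitochondrion, 12 tested of 13, had 8, 4 and 3 lower calls and medians of −0.85, −0.60 and −0.60; without injured background replicate 3, background had 12 of 12 lower and a median of −1.01. Tricarboxylic acid cycle genes, 15 tested, had 6, 1 and 1 lower and 3, 0 and 0 higher calls, with medians of −0.49, −0.39 and −0.25.

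Markers of whole cell types also changed after injury in these inputs. Fat body genes, 7 matched, summed to 244600 to 269500 CPM in injured dnmnatOE inputs against 60300 to 67570 CPM in uninjured ones, to 138600 to 149500 against 65890 to 68530 CPM in wild type, and to 72510 to 83930 against 60550 to 61010 CPM in background. Muscle genes, 16 matched, summed to 805 to 859 against 3124 to 3265 CPM in dnmnatOE, 1686 to 1733 against 2171 to 2236 CPM in wild type, and 2108 to 2255 against 2321 to 2356 CPM in background, and 14, 2 and 1 of 15 tested were called lower. Neuron genes, 8 matched, summed to 517 to 546 against 1599 to 1645 CPM, 831 to 905 against 1322 to 1379 CPM, and 1128 to 1372 against 1568 to 1586 CPM, with 8, 5 and 0 of 8 called lower. Photoreceptor genes had 10, 6 and 2 of 15 lower and hemocyte genes 4, 4 and 4 of 5 higher. Only Fbp1 in uninjured dnmnatOE was at 0 among the fat body, muscle and neuron markers. Muscle, neuron and photoreceptor markers thus had most lower calls in dnmnatOE and fewest in background. Member medians were −0.46, −0.39 and −0.55 in dnmnatOE, wild type and background. Without injured replicate 3 the background member median was −0.46. The part of these cell types in the respiratory chain values was not tested.

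Exon length also moved with the injury difference. Over all tested genes the median log2 fold change was −0.50 for genes of up to 700 exon bases, −0.25 for those above that and up to 1000, 0.06 for those up to 1500 and 0.00 for longer genes in dnmnatOE. Wild type gave −0.42, −0.20, −0.02 and 0.05, and background −0.42, −0.25, −0.08 and 0.08. Respiratory chain genes, of which 13, 30, 9 and 13 fall in these bins, had medians of −0.61, −0.50, −0.44 and −0.12 in dnmnatOE, −0.56, −0.39, −0.34 and −0.09 in wild type, and −0.63, −0.58, −0.42 and −0.16 in background. Member medians were thus below those of all genes in each bin, and both were lowest among the shortest genes. Calls differed by bin. Of the 13 shortest members 7, 5 and 8 were called lower, beside 24.2%, 17.1% and 17.1% of all genes of that length. Of the 13 members over 1500 bases 2, 1 and 1 were, beside 26.4%, 10.1% and 2.65% of all genes. The part of transcript length was not tested.

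**Figure D3:**
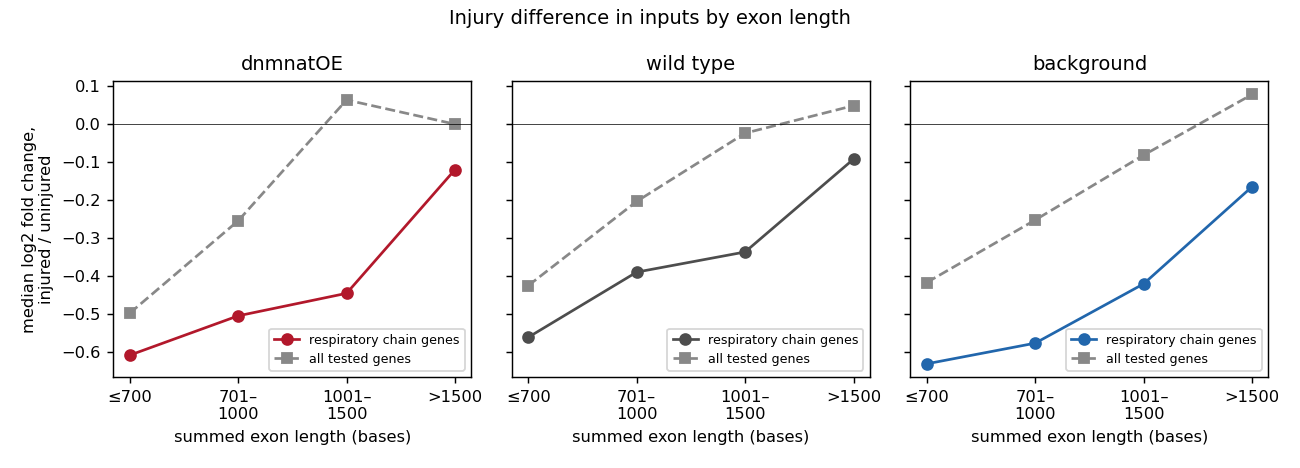
Median log2 fold change between injured and uninjured inputs (vertical axis) by summed exon length of the gene in bases (horizontal axis), for respiratory chain genes (circles) and all tested genes (squares) in each genotype. Short genes lie lowest in both series, and members lie below all genes in each bin, from −0.61 to −0.12 in dnmnatOE.

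Few of these genes differed by genotype alone. Between dnmnatOE and wild type in uninjured inputs 0 of 65 were called, where 7.54% of all genes were; edgeR gave 12 at an unadjusted p under 0.05 and DESeq2 called 0. The median was 0.03, beside −0.01 for all genes. In injured inputs 2 of 65 were called, both lower, where 13.3% of all genes were called, and the median was 0.01. COX7AL2, with the values given above, was lower in injured dnmnatOE than in injured wild type by a log2 fold change of −1.80 (SE 0.43, adjusted p = 0.00078). ND-AGGG was lower by −0.68 (SE 0.27, adjusted p = 0.05), a call that ended without dnmnatOE replicate 2 (−0.54) or replicate 3 (−0.65), without wild type replicate 1 (−0.63) or replicate 2 (−0.59), and with DESeq2 (−0.67).

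The change in dnmnatOE differed for 3 of 65 members, where 22.1% of all genes were called. ATPsynbeta rose more in dnmnatOE, by a log2 difference of 0.60 (SE 0.08, adjusted p = 1.1e-08), SdhA fell more, with a difference of −0.62 (SE 0.11, adjusted p = 8.1e-06), and COX7AL2 fell more, with −1.95 (SE 0.56, adjusted p = 0.0061). ATPsynbeta and SdhA sit at the fold threshold, and leaving out a library could carry them across it while adjusted p stayed small. With library totals alone the ATPsynbeta difference was 0.24 and not called. ATPsynbeta went to 0.56 without injured dnmnatOE replicate 1, 0.60 without uninjured dnmnatOE replicate 3, 0.59 without injured wild type replicate 3 and 0.59 without uninjured wild type replicate 1. SdhA went to −0.58 without injured dnmnatOE replicate 3, −0.57 without uninjured dnmnatOE replicate 2, −0.57 and −0.60 without injured wild type replicates 1 and 2, and −0.58 each without uninjured wild type replicates 1 and 2. Muscle markers had 11 of 15 and neuron markers 6 of 8 lower calls in this same contrast, and 4 of 7 fat body markers were higher.

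In genotype, wild type and background differ by the tagged ribosome transgene. In uninjured inputs 0 of 65 members were called, where 6.52% of all genes were; edgeR gave 45 at an unadjusted p under 0.05 and DESeq2 called 0. Yet 64 of 65 members lay below 0, with a median of −0.30 beside 0.02 for all genes, and 31 were lower on adjusted p alone, where 4.13% of all genes were. The shift was small and shared by every complex, with medians of −0.31, −0.20, −0.20, −0.38 and −0.28 for complexes I to V. Marker sums differed there too, with photoreceptor genes at 36220 to 36820 CPM in wild type and 50070 to 50740 CPM in background. Neuron genes had 1322 to 1379 against 1568 to 1586 CPM. Hemocyte genes, at 279 to 289 against 91.4 to 96.1 CPM, and fat body and glia genes were higher in wild type. All-gene medians by exon length bin, shortest first, were −0.17, −0.11, −0.02 and 0.05. The parts of the transgene, cell types and exon length in this shift were not tested. Injured inputs had 0 of 65 called, where 14.6% of all genes were (28 at an unadjusted p under 0.05, 0 by DESeq2), with a median of −0.18. The change with injury differed between wild type and background for 0 of 65, where 6.87% of all genes did (10 at an unadjusted p under 0.05, 0 by DESeq2).

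In ribosome pulldowns 56 members could be tested. Levels in uninjured wild type pulldowns were highest for UQCR-C2 at 241 ± 31.6 CPM per kb and ATPsynC at 196 ± 2.61 CPM per kb, and SdhA at 87.1 ± 28.6, ND-51 at 79.9 ± 18.9 and COX5A at 76.94 ± 13.03 CPM per kb were highest in the other complexes. The next genes, SdhB at 77.5 ± 29.4, ND-75 at 76.7 ± 35.6 and COX4 at 68.7 ± 37.4 CPM per kb, lay within their spread. Group means of summed CPM were lower than in inputs for complexes I, III, IV and V, while complex II held 437 CPM in injured wild type pulldowns beside 436 CPM in their inputs, and 550 beside 538 CPM in injured background. Inputs and pulldowns were scaled separately for these sums, so the sums are not on 1 scale. In the joint fit given below, complex II had pulldown medians of −0.69 in wild type and −0.97 in background. The 5 members behind these medians include the paralog SdhAL, which had no counts in either genotype. All members together summed to 3090 ± 155 CPM in injured dnmnatOE pulldowns and 3626 ± 70.6 CPM in uninjured ones, 3711 ± 216 and 3450 ± 322 CPM in wild type, and 3942 ± 135 and 3848 ± 112 CPM in background. The dnmnatOE sums did not overlap between injured and uninjured libraries, while those of wild type and background did.

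Single calls were few. After injury 2 of 56 members were called in dnmnatOE pulldowns, where 11.9% of all 7213 tested genes were, with a median of −0.36. UQCR-Q, a small complex III subunit, had 39.0, 34.2 and 43.4 CPM injured against 150, 103 and 122 CPM uninjured, without overlap and with a log2 fold change of −1.68 (SE 0.36, adjusted p = 0.00053). SdhB, the iron-sulfur subunit of complex II, had 93.1, 63.7 and 96.5 CPM against 185, 126 and 160 CPM, a log2 fold change of −0.89 (SE 0.30, adjusted p = 0.043). The groups of SdhB did not overlap, but the call ended without injured replicate 1 (−1.002), 2 (−0.78) or 3 (−1.03), or uninjured replicate 1 (−0.76) or 3 (−0.92).

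Wild type pulldowns had 1 of 56 called after injury, where 6.22% of all genes were, with a median of 0.15. It was ATPsynB of the peripheral stalk, higher at 101, 160 and 90.1 CPM against 65.4, 43.1 and 53.2 CPM, a log2 fold change of 1.11 (SE 0.35, adjusted p = 0.037) that ended without injured replicate 2 (0.82), uninjured replicate 2 (0.98) or uninjured replicate 3 (1.10). Background pulldowns, which hold no tagged ribosome, had 1 of 56 called, where 2.58% of all genes were, with a median of −0.08. It was the core protein UQCR-C1, with 443, 478 and 466 CPM against 292, 249 and 321 CPM, a log2 fold change of 0.69 (SE 0.18, adjusted p = 0.022). That call ended without injured replicate 2 (0.66) or 3 (0.68) or uninjured replicate 1 (0.70) or 2 (0.59). Each of these shares, 3.57%, 1.79% and 1.79%, lies below that of all genes.

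Between dnmnatOE and wild type, uninjured pulldowns had 0 of 56 called, where 6.64% of all genes were (4 at an unadjusted p under 0.05 in edgeR, 2 by DESeq2), and injured pulldowns 0, where 2.61% were (5 and 1). Medians were 0.07 and −0.28, the second being −0.25 with ND-B15, at 0 in injured dnmnatOE, placed at its bound. The change with injury differed for 1 of 56, where 3.05% of all genes did. SdhB, with 154, 127 and 177 CPM in injured wild type pulldowns and 115.1, 53.1 and 115.3 CPM in uninjured ones beside the dnmnatOE values above, had a log2 difference of −1.58 (SE 0.44, adjusted p = 0.031). It was lost without injured dnmnatOE replicate 2 (−1.48), uninjured dnmnatOE replicate 1 (−1.45) or 3 (−1.62), injured wild type replicate 1 (−1.57) or 3 (−1.52), or uninjured wild type replicate 2 (−1.30). Wild type and background pulldowns differed for 0 of 56 uninjured, where 3.01% of all genes did (6 at an unadjusted p under 0.05, 2 by DESeq2), for 0 injured, where 3.05% did (4 and 0), and for 0 in the change with injury, where 1.15% did (2 and 2).

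Pulldown was set against input, averaged over injured and uninjured libraries, for 67 tested members. In each genotype 59 of 67 were called lower in the pulldown, where 27.8% of all 9860 tested genes were in dnmnatOE, 31.9% in wild type and 29.3% in background. Member medians were −2.07, −2.10 and −2.14, beside −0.28, −0.54 and −0.42 for all genes. Background heads, whose ribosomes carry no tag, thus gave a median of the same order as both tagged genotypes. Complex IV had medians of −2.60, −2.62 and −2.36 and complex V −2.15, −1.99 and −2.34, while complex II stood at −0.91, −0.69 and −0.97. The 5 tested complex II members include the paralog SdhAL, whose 31 counts were all in dnmnatOE pulldowns. SdhAL thus entered the wild type and background medians without counts. It lay above the complex II median in each genotype, so the subunits that are no paralogs have lower medians than these. Higher calls numbered 4 in dnmnatOE, where 20.2% of all genes were, 0 in wild type, where 16.4% were (1 at an unadjusted p under 0.05, 1 by DESeq2), and 2 in background, where 16.3% were. Those of dnmnatOE were the paralogs ND-51L1, ND-51L2, SdhAL and UQCR-11L, which rest on few counts: ND-51L2 had 40 counts in dnmnatOE pulldowns and SdhAL 31, each with 0 in inputs, at least 20.5-fold and 19.4-fold higher against a floor of 3 counts per library. In background they were ND-51L1 and SdhA, which stood at 0.63 on the log2 scale.

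**Figure D4:**
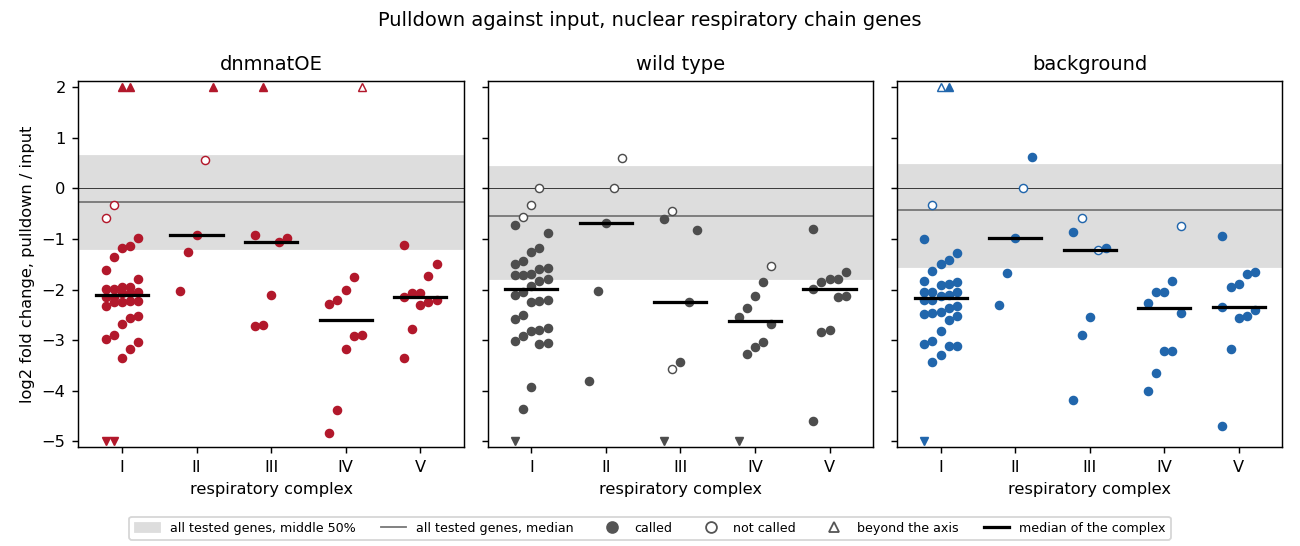
Log2 fold change of each tested member between pulldown and input (vertical axis), by respiratory complex (horizontal axis) and genotype (panels), averaged over injured and uninjured libraries. Filled points were called, open points were not, triangles lie beyond the axis, black bars are medians of a complex and the grey band holds the middle 50% of all tested genes. Most members lie below the grey band in all 3 genotypes, with medians of −2.07, −2.10 and −2.14.

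Inputs were poly-A selected and pulldowns were not, so the selection and the pulldown cannot be told apart in these fold changes. Subunits encoded in the mitochondrion were lower still, with 12 of 12 called lower in each genotype and medians of −5.16, −5.24 and −5.24. Tricarboxylic acid cycle genes had medians of −0.58, −0.34 and −0.49. Exon length moved with this difference too. Members of up to 700 bases had medians of −2.73, −2.81 and −2.54, beside −1.61, −2.48 and −2.38 for all genes. The 30 members above that and up to 1000 bases had −2.18, −2.195 and −2.40, beside −1.68, −2.18 and −2.13. All 30 were called lower in each genotype, where 57.7%, 58.6% and 62.2% of all genes of that length were. The 9 longer members of up to 1500 bases had −1.99, −1.85 and −2.05, beside −1.05, −1.535 and −1.335. Members over 1500 bases had −0.99, −0.73 and −0.95, beside 0.06, −0.10 and −0.04. The part of exon length in the pulldown difference was not tested. To ask what the tag adds, the pulldown difference of background was taken from that of each tagged genotype. In dnmnatOE 1 of 67 was then called, where 6.89% of all genes were, and in wild type 1 of 67, where 3.36% were. The member medians of these differences were 0.12 and 0.14, beside 0.15 and −0.04 for all genes. ATPsynG, an ATP synthase membrane subunit, gave 1.35 (SE 0.42, adjusted p = 0.036) in dnmnatOE, and ND-13A of complex I 2.16 (SE 0.60, adjusted p = 0.027) in wild type.

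Both of these rest on low counts. ATPsynG had 12.6, 15.3 and 25.6 CPM in injured and 18.8, 39.3 and 15.8 CPM in uninjured dnmnatOE pulldowns, against 2.02, 0 and 11.1 CPM and 35.1, 6.25 and 39.6 CPM in background. The uninjured libraries of dnmnatOE and background overlapped. Its call ended without injured dnmnatOE input replicate 1 (1.35) or 3 (1.33), injured background pulldown replicate 1 (1.19) or 2 (1.11), injured dnmnatOE pulldown replicate 3 (1.18) or uninjured dnmnatOE pulldown replicate 2 (1.19). ND-13A had 4.44, 2.03 and 20.7 CPM in injured and 20.9, 34.8 and 7.10 CPM in uninjured wild type pulldowns, against 5.04, 0 and 5.56 CPM and 6.53, 0 and 4.40 CPM in background. Its call ended without injured wild type pulldown replicate 3 (1.35).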

How the data were processed

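The authors trimmed reads with Trimmomatic, aligned them with HISAT2, used SAMtools, counted with HTSeq-count on FlyBase's Release 6 annotation and tested with DESeq2; tool versions are not given in the sources used here. The deposited files hold raw counts per gene, 1 file per library; 5 HTSeq summary lines per file were left out. Symbols came from a gene name table for 17559 of 17611 IDs, and exon lengths and positions from Ensembl's BDGP6 annotation. Counts were fitted with edgeR 4.0.16 in R 4.3.3 (limma 3.58.1): filterByExpr by group, TMM factors (0.678 to 1.19 in inputs, 0.820 to 1.29 in pulldowns), robust quasi-likelihood F test, Benjamini-Hochberg adjustment over all genes tested, separately for 18 inputs, 18 pulldowns and, for fraction differences only, all 36. SE is the size of the log2 fold change divided by the square root of F. The scripts were tested on simulated data.

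Members and lists were chosen with earlier results of these data known. Named with values in every library were the member with the highest level per kb in each complex and, per comparison and direction, up to 8 called members of largest change. Paralogs were given by level. Alternatives were DESeq2 1.42.0, RLE size factors, no filter on low counts, no fold threshold, each library left out, a replicate block, and, added after seeing the data, library totals alone. No 2 libraries were identical. The lists of assembly factors, carriers and regulators had 0, 2 and 1 lower and 0, 0 and 2 higher calls after injury in dnmnatOE inputs, with medians of 0.12, −0.06 and 0.35. Glia and antennal support cell markers had 4 of 8 and 7 of 7 lower there, and 3 of 7 tested olfactory markers were lower. Of 9 testis markers 0 passed the filter. Promoter and protein sequences were not used here.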

Additional observations from a re-analysis of the deposited data

Results flagged for a closer look

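In total 6 members differed between genotypes in their change with injury or in their pulldown difference from input, each by a test of that difference, and no cause was tested for any of them. In inputs the injury change of dnmnatOE less that of wild type was 0.60 on the log2 scale for ATPsynbeta, −0.62 for SdhA and −1.95 for COX7AL2. In pulldowns the same difference was −1.58 for SdhB. The pulldown difference from input, less that of background, was 1.35 for ATPsynG in dnmnatOE and 2.16 for ND-13A in wild type. Calls of ATPsynbeta, SdhA, SdhB, ATPsynG and ND-13A ended when certain single libraries were left out, as given with each value in the results. COX7AL2 kept its call with each library left out. With 3 libraries a group no library was tested for standing apart from its group. Injured background input replicate 3 was described as apart, and left out in some counts, by its values alone.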

How the results depend on the processing

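Counts of called members were recomputed under each alternative. Of 1032 values of single named, called members none reversed, 942 kept their call and 90 kept their sign but passed no longer, 81 of them with a library left out. With no fold threshold, injury counts in inputs became 54, 50 and 51 in dnmnatOE, wild type and background, the contrast of dnmnatOE with wild type 4 uninjured and 15 injured and its change with injury 11, and that of wild type with background 31 uninjured, 17 injured and 3 in the change with injury; dnmnatOE less background in the pulldown difference gave 2. Library totals alone gave 57 and 49 for injury in dnmnatOE and wild type inputs, 8 for injured dnmnatOE against wild type, 11 for their change with injury, 1 and 19 for wild type against background uninjured and injured, and in pulldowns 5 for uninjured dnmnatOE against wild type, 2 for their change with injury, 1 for uninjured wild type against background, and 17 for dnmnatOE less background. DESeq2 gave 1 for injured dnmnatOE against wild type inputs, and in pulldowns 4 for injury in wild type, 2 and 1 for dnmnatOE against wild type uninjured and injured, 4 for their change with injury, 2 each for uninjured wild type against background, for its change with injury and for both differences less background. RLE factors gave 1 for injured dnmnatOE against wild type inputs. No filter gave 1 for the pulldown change with injury of wild type against background and 4 for dnmnatOE less background. The replicate block, fitted although the numbers do not pair the samples, gave 15 for wild type injury in inputs, 0 for wild type injury in pulldowns and 0 for dnmnatOE less background, and changed no other count; correlations of same-numbered libraries ran from −0.105 to 0.0587 over 45 input pairs and from −0.0395 to 0.0342 over 45 pulldown pairs.

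With 1 library left out, counts ran from 1 to 4 for the change with injury of dnmnatOE against wild type in inputs, 0 to 3 in pulldowns, 1 to 3 for injured dnmnatOE against wild type inputs, 0 to 1 for wild type against background in injured and in uninjured inputs, in uninjured pulldowns and in the pulldown change with injury, 1 to 3, 0 to 2 and 0 to 1 for injury in dnmnatOE, wild type and background pulldowns, and 0 to 3 and 0 to 1 for dnmnatOE and wild type less background. Injury counts in inputs ran from 25 to 29, 14 to 18 and 19 to 28, and fraction counts from 63 to 66, 58 to 59 and 59 to 62. The causes of these changes were not tested.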
